A study of Homo sapiens with 10 samples.

Results

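The 60 microRNA (miRNA) assays with a number of 1000 or more were followed through a set of pulldowns with a probe against 1 messenger RNA. They were chosen by name from 745 miRNA assays: the number after "miR-" is at least 1000, the name does not end in a star, and miR-1283, miR-1323, miR-1974 and miR-1979 are left out. All 60 sit on panel 2 of the 2 quantitative PCR panels, which holds 370 miRNA assays. Material was purified from HepG2, a human liver tumour line, with a control probe, a p21 probe or a STAT3 probe. It was also purified from PC-3, a human prostate cancer line, with a control or a p21 probe. The p21 mRNA encodes an inhibitor of cyclin-dependent kinases and the STAT3 mRNA a transcription factor that cytokines switch on. In all groups the probe was left in the transfected cells for 24 hours and recovered on streptavidin beads; no other treatment is labelled. Each of the 5 purifications was made 1 time and run on both panels (10 samples), so no difference could be set against a repeat purification and nothing was tested.

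MiRNAs are numbered in the order of their discovery, so numbers of this height belong to miRNAs found late, mostly by deep sequencing of small RNA. They are as a rule scarcer and less conserved than the early named families. Some are mirtrons, short introns whose spliced lariat folds into the hairpin in place of the first cut by the nuclease Drosha. Other entries were later traced to small nucleolar RNA or transfer RNA. A mature miRNA guides Argonaute to mRNAs that pair with its seed, bases 2 to 8 from its 5′ end.

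RefSeq (GRCh38.p14) was searched with the entries of a whole chromosome left out. It has a mature sequence under the exact assay name for 26 of the 60, and for 22 more under the gene alone. It lists several mature forms for 17 of these, and the assay name does not say which arm was measured. For the other 12 no mature entry was matched, which does not mean that RefSeq lacks them. The sequences below have the seed in capitals. Of the members shown, miR-1247 (by its bound), miR-1913 and miR-1972 were at least 2-fold higher with p21 than with the control in HepG2. The direction of miR-1972 depended on the reference. miR-1266, miR-1471 and miR-1183 had the smallest spans of Cq. miR-1247 is shown with both arms, at chr14:101560326-101560349 (3p) and chr14:101560362-101560383 (5p), minus strand, within the noncoding gene DIO3OS on the same strand. miR-1913 is at chr6:166509364-166509385, minus strand, inside RPS6KA2, which encodes a ribosomal S6 kinase. miR-1266 is shown with both arms, at chr15:52277131-52277152 (3p) and chr15:52277166-52277188 (5p), minus strand, inside MYO5C, which encodes an unconventional myosin. miR-1972 has 2 identical copies, at chr16:15010329-15010350 (minus strand) and chr16:70030393-70030414 (plus strand). miR-1471 is at chr2:231892277-231892298, minus strand, and miR-1183 at chr7:21471105-21471131, plus strand, inside SP4, which encodes a zinc finger transcription factor.
miR-1247-3p: cCCCGGGAacgucgagacuggagc
miR-1247-5p: aCCCGUCCcguucguccccgga
miR-1913: uCUGCCCCcuccgcugcugcca
miR-1266-3p: cCCUGUUCuaugcccugaggga
miR-1266-5p: cCUCAGGGcuguagaacagggcu
miR-1972: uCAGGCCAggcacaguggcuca
miR-1471: gCCCGCGUguggagccaggugu
miR-1183: cACUGUAGgugauggugagagugggca

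The mirtrons on the panel are shown because their sequence carries a trace of their origin: a hairpin that is an intron ends at a 3′ splice site, so its 3p arm can end in AG. miR-1224-3p is at chr3:184241469-184241489 (plus strand) in VWA5B2. The 3p arm of miR-1227 is at chr19:2234062-2234081 (minus strand) in PLEKHJ1, and that of miR-1236 at chr6:31956839-31956860 (minus strand) in NELFE. The 3p arm of miR-1237 is at chr11:64368683-64368703 (plus strand) in RPS6KA4, and that of miR-1238 at chr19:10552183-10552202 (plus strand). AG was found at the 3′ end of the first 4 and not of the last. Of the 2370 mature human miRNAs searched, from both arms, 12.1% end in AG. The arms of the first 4 end with their hairpins, while that of miR-1238 ends at 10552202 and its hairpin at 10552204. Only the assay of miR-1224-3p names its arm. Outside the mirtrons, the 3p arm of the member miR-1178 also ends in AG.
miR-1224-3p: cCCCACCUccucucuccucag
miR-1227-3p: cGUGCCACccuuuuccccag
miR-1236-3p: cCUCUUCCccuugucucuccag
miR-1237-3p: uCCUUCUGcuccgucccccag
miR-1238-3p: cUUCCUCGucugucugcccc

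Late-named miRNAs were detected mainly with the target probes in HepG2. A Cq is the PCR cycle at which a well crosses the signal threshold, lower for more template, and a Cq of at most 35 counted as detected. By that limit 4 of 60 were detected with the HepG2 control probe, where 4.59% of all panel 2 assays were, and 18 of 60 with the p21 probe, where 22.4% were. With the STAT3 probe 24 of 60 were detected, against 31.6% of the panel. In PC-3 the counts were 2 with the control probe (2.16% of the panel) and 5 with the p21 probe (4.05%). In every purification the share of the 60 was above that of the panel, which includes them, and the difference was not tested. Of the 183 panel 2 miRNAs numbered below 1000 without a star, 38 were detected with p21 and 58 with STAT3 in HepG2, and of the 126 star strands 26 and 34. More miRNA held by the probe and more material recovered on the beads cannot be told apart here, nor can more cells and more RNA per cell. On the same panel the mean Cq of U6, SNORD38B and SNORD49A, small RNAs used as references, was lower than with the control probe by 2.51 cycles for p21 and 2.31 for STAT3 in HepG2, and by 1.17 for p21 in PC-3. Their part in the counts was not tested.

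Of the detected members in HepG2, 6 of 18 with p21 and 10 of 24 with STAT3 lay within 1 cycle of the limit. Over the whole panel, 47, 83 and 109 assays were detected with p21 at limits of 34, 35 and 36. With STAT3 these counts were 55, 117 and 175. Values near the limit were thus not particular to the members. The median Cq of detected members was 33.66 with the p21 probe (29.91 to 34.96) and 33.85 with the STAT3 probe (32.21 to 34.82). The other 310 assays of the panel had medians of 33.94 and 34.14 in those purifications. Of the 60, 4 reached a Cq of at most 32, all with the HepG2 p21 probe, where 8 of the other 310 did. These 4 were miR-1247, miR-1913, miR-1538 and miR-1224-3p. With STAT3 the lowest Cq was 32.21, for miR-1207-5p. Just inside the limit were miR-1227 (34.96) with p21 and miR-1471 (34.82) with STAT3, and just outside were miR-1471 (35.38) and miR-1253 (35.01). Between Cq 35 and 36 lay 6 members with p21 and 12 with STAT3, so the counts change with the limit. With a limit of 37, 29 members were detected with p21 in HepG2 (34.9% of the panel) and 42 with STAT3 (56.5% of the panel).

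**Figure D1:**
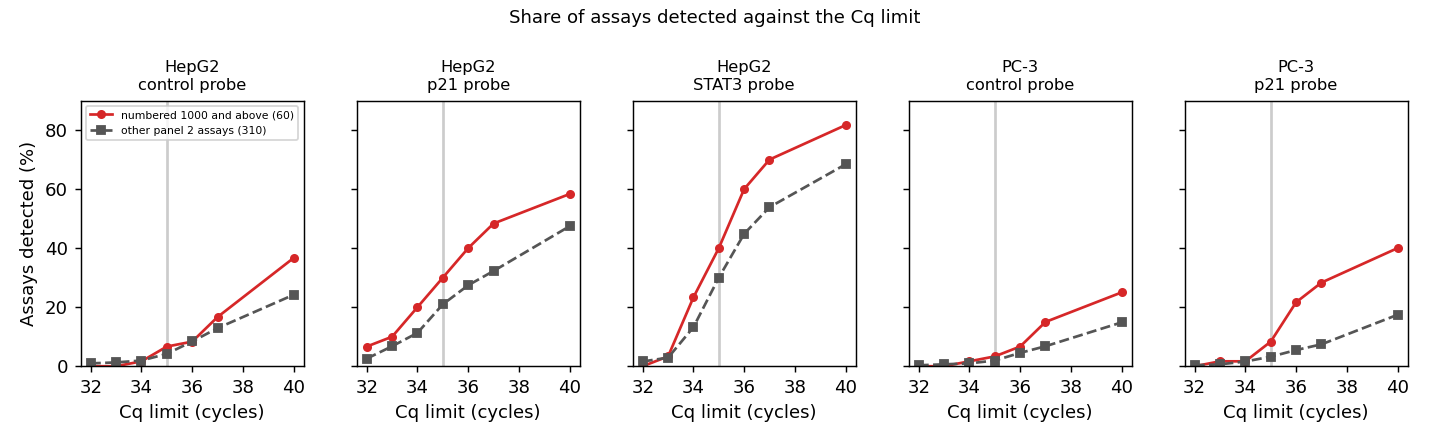
Share of assays detected (%) against the Cq limit (cycles) in each purification, for the 60 miRNAs numbered 1000 and above (circles) and the other 310 panel 2 assays (squares); the grey line is the limit of 35. At 35 the HepG2 counts were 18 of 60 against 65 of 310 with the p21 probe and 24 of 60 against 93 of 310 with the STAT3 probe, while at 32 the 60 had detected members with the HepG2 p21 probe only.

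By pattern, 29 of the 60 (48.3%) were detected in at least 1 purification, beside 118 of the other 310 (38.1%). Another 21 gave only Cq values above the limit and 10 gave none, beside 116 and 76 of the other 310. Detected in 1 purification were 14, beside 69 of the other 310: 10 with STAT3 (miR-1205, miR-1236, miR-1237, miR-1244, miR-1254, miR-1256, miR-1259, miR-1267, miR-2113 and miR-3180-3p) and 4 with p21 in HepG2 (miR-1181, miR-1227, miR-1260 and miR-1908). Detected with both HepG2 target probes and nowhere else were 7: miR-1201, miR-1207-5p, miR-1248, miR-1249, miR-1296, miR-1909 and miR-2110. miR-1247, miR-1538 and miR-1914 were detected with both and also with p21 in PC-3. miR-1266 was the member detected in all 5. In all, 9, 4, 1 and 1 members were detected in 2, 3, 4 and 5 purifications, beside 38, 4, 5 and 2 of the other 310.

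**Figure D2:**
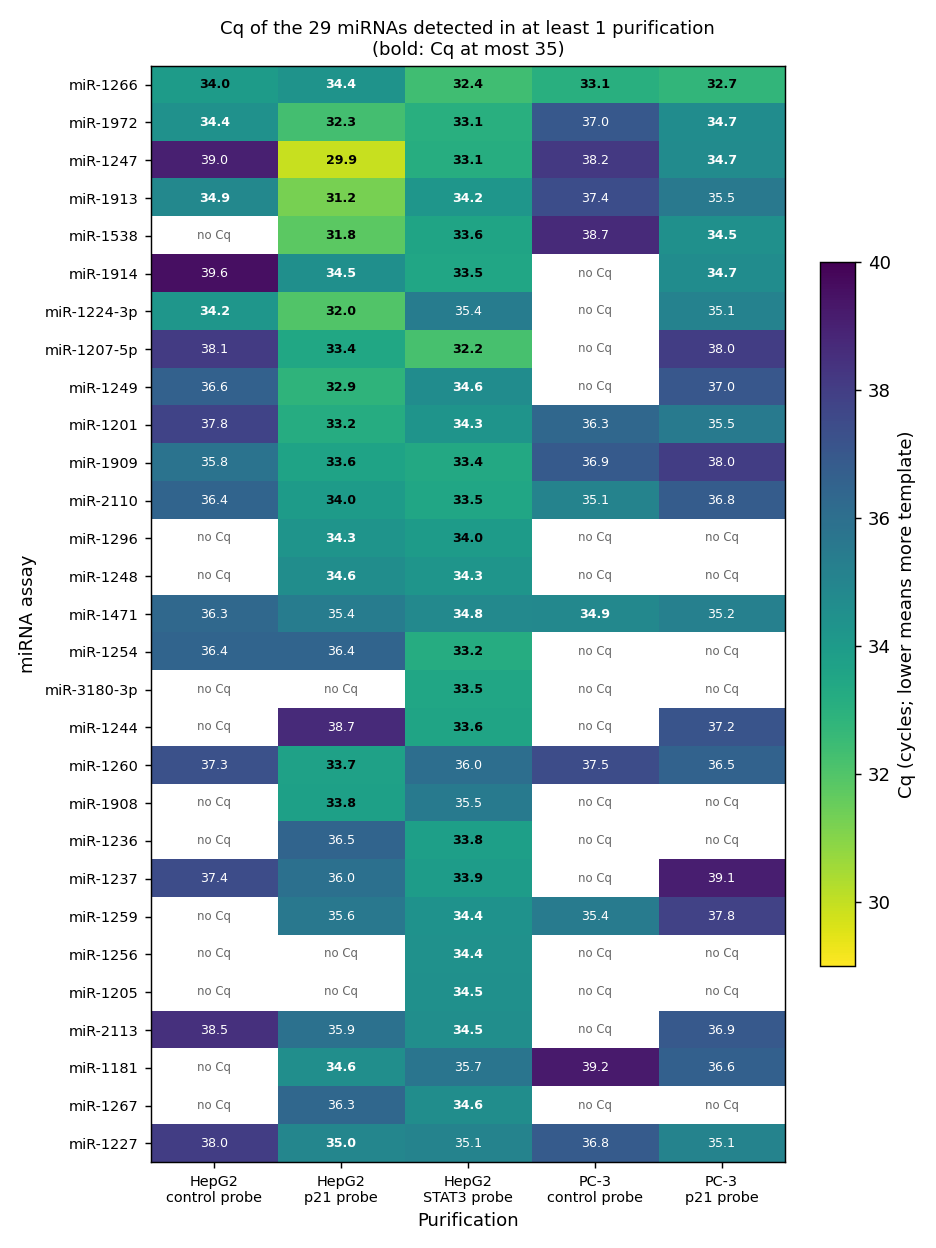
Cq (cycles, colour and number) of the 29 miRNAs detected in at least 1 purification (rows) in the 5 purifications (columns); bold marks a Cq of at most 35, and white cells gave no Cq. The columns of the p21 and STAT3 probes in HepG2 hold 18 and 24 bold values, and those of the control probes 4 and 2.

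miR-1247 had the lowest Cq of the group and the largest spread. It gave 39.03, 29.91 and 33.14 with the control, p21 and STAT3 probes in HepG2, and 38.19 and 34.71 with the control and p21 probes in PC-3. It was thus detected with every target probe and with neither control probe. The gene lies in the imprinted DLK1-DIO3 region. With the control set to the limit, the p21 value in HepG2 was at least 16.3-fold higher after the panel's median shift was taken off, and the STAT3 value at least 1.66-fold higher (3.63-fold before). For p21 in PC-3 the bound was 1.37-fold. The median shift was 1.06 cycles for p21 and 1.13 for STAT3 in HepG2, and -0.17 for p21 in PC-3. With the small RNAs as reference the shifts were 2.51, 2.31 and 1.17. Each bound of a target probe over its control would then be lower. The STAT3 bound of miR-1247 and all bounds for p21 in PC-3 would not remain. The authors' deposited table lists miR-1247 at 26.6-fold for p21 and 2.05-fold for STAT3 in HepG2, and at 1.85-fold for p21 in PC-3. These are relative to a housekeeping assay that the table does not name. The most common values among the listed members were 0.782, 0.565 and 1.51 in the same order. The scheme inferred below gives these for an assay undetected with both probes. It also takes 35 for a higher control Cq, so these folds rest on the same readings as the bounds.

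miR-1538 followed the same order. It gave no Cq with the HepG2 control probe, 31.77 with p21 and 33.56 with STAT3, and 38.69 and 34.48 with the control and p21 probes in PC-3. The bounds were at least 4.48-fold for p21 and 1.24-fold for STAT3 in HepG2, and 1.61-fold for p21 in PC-3. miR-1914, inside UCKL1, which encodes a uridine-cytidine kinase homologue, gave 39.57, 34.50 and 33.48 in HepG2, no Cq with the PC-3 control and 34.66 with p21 there. After centring, the bound of miR-1914 for p21 in HepG2 was below 1, so no fold is given. All 5 members detected with the p21 probe in PC-3 were also detected with it in HepG2, where they are 27.8% of the 18; for the other 310 assays 9 of 10 were, 13.8% of 65. These purifications have no control in common.

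A difference in Cq between probes can be given for the few members detected with both. Such differences are in log2 units, with 1 cycle taken as 1 unit, minus the median over all panel 2 assays detected with both probes, and 1 unit (2-fold) or more was counted. Precision was read from assays that both panels carry. Over 27 pairs of wells the SD of a single Cq was 0.68 cycles. Over 14 pairs, all of a target probe against its control, that of a difference was 0.72. These SDs hold offsets between panels but not the error of a repeated purification. UniSp3, a calibrator in 3 wells of each panel 2 plate, had a pooled SD of 1.06 cycles. That is above both SDs and above the 1 unit counted, so differences near 1 unit may lie within well error.

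For p21 against control in HepG2, 3 of the 4 members measured with both probes were higher and 1 lower, while 37.5% of the 16 panel assays so measured were higher and 25.0% lower. The 4 are themselves among the 16. miR-1913 went from 34.86 with the control to 31.24 with p21, which was 2.56 units above the panel (5.90-fold). Its control Cq lay near the limit, where values are less precise than the SDs given. miR-1224-3p went from 34.21 to 31.99 (1.15) and miR-1972 from 34.43 to 32.27 (1.09). miR-1266 went the other way, from 33.95 to 34.35 (-1.46, or -0.40 without centring). The direction of miR-1224-3p and miR-1972 turned to -0.30 and -0.36 when U6, SNORD38B and SNORD49A were the reference, and miR-1913 stayed higher at 1.11. A further 14 members (23.3%) were detected with p21 and not with the control, beside 18.1% of the panel, and 0 with the control only. After miR-1247 and miR-1538 the highest bounds were 2.12-fold for miR-1249, which lies in KIAA0930, and 1.68-fold for miR-1201. With the small RNAs as reference only the bounds of miR-1247 and miR-1538 would remain. miR-1909 (1.26-fold), miR-1207-5p (1.43-fold), miR-1260 (1.17-fold) and miR-1908 (1.14-fold, in FADS1, the gene of a fatty acid desaturase) had bounds smaller than the SD of a difference, and the other 6 gave no bound above 1.

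For STAT3 against control in HepG2, 0 of 3 members were 2-fold higher or lower, where 7.69% of 13 panel assays were higher and 23.1% lower. miR-1266 (33.95 to 32.39) stood at 0.43, miR-1972 (34.43 to 33.07) at 0.22 and miR-1913 (34.86 to 34.20) at -0.47. All 3 lay within the SD of a difference from the panel median. miR-1224-3p was detected with the control at 34.21 and missed the limit with STAT3 at 35.38, a bound of at least 3.80-fold lower after centring (1.73-fold before). Detected with STAT3 and not with the control were 21 of the 60, beside 28.1% of the panel. The highest bound among these was 3.16-fold for miR-1207-5p, which gave 38.07 with the control, 32.21 with STAT3, no Cq with the PC-3 control and 38.01 with p21 in PC-3. miR-1254 (36.44 to 33.21, at least 1.57-fold), miR-1909 (35.81 to 33.38, 1.40-fold) and miR-1914 (1.31-fold) followed with miR-1247. The p21 and STAT3 comparisons use the same control purification.

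The 7 members detected with both HepG2 target probes and nowhere else lay between 32.21 and 34.63 there. miR-1249 gave 36.60, 32.85 and 34.63 with the control, p21 and STAT3 probes, no Cq with the PC-3 control and 37.03 with p21 in PC-3. miR-1909, inside REXO1, which encodes an RNA exonuclease homologue, gave 35.81, 33.61 and 33.38 in HepG2, then 36.87 and 38.01 in PC-3. miR-2110, inside CCDC186, gave 36.44, 33.96 and 33.50 in HepG2, then 35.10 and 36.82 in PC-3. For miR-1909 and miR-2110 the p21 and STAT3 values lay closer together than the SD of a Cq, and in PC-3 the Cq was higher, meaning less template, with p21 than with the control. miR-1296, inside JMJD1C, gave 34.32 with p21 and 33.97 with STAT3 and no Cq in the other 3 purifications. miR-1913 gave 37.41 with the control and 35.54 with p21 in PC-3, and miR-1224-3p no Cq and 35.11, so neither was detected there.

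**Figure D3:**
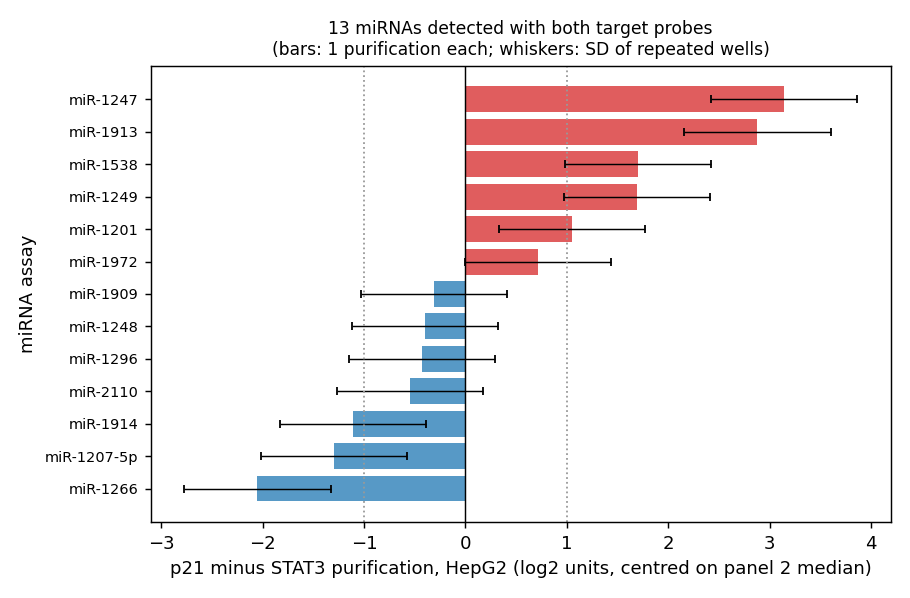
Difference between the p21 and STAT3 purifications of HepG2 (log2 units, centred on the panel 2 median; above 0 is more with p21) for the 13 miRNAs detected with both; whiskers are the SD of a difference between repeated wells, 0.72, and dotted lines mark 2-fold. miR-1247 stands highest at 3.14 and miR-1266 lowest at -2.05. The SD comes from comparisons of a target probe with its control.

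Set directly against each other, the p21 and STAT3 purifications of HepG2 shared 13 members, 72.2% of the 18 with p21 and 54.2% of the 24 with STAT3. The other 310 assays shared 40, which is 61.5% of 65 and 43.0% of 93. By 2-fold or more, 5 of the 13 were higher in the p21 purification and 3 in the STAT3 purification, where 30.2% of 53 panel assays were higher and 15.1% lower. Higher with p21 were miR-1247 (3.14, 8.84-fold), miR-1913 (31.24 against 34.20; 2.88, 7.34-fold), miR-1538 (1.70), miR-1249 (32.85 against 34.63; 1.69) and miR-1201 (33.19 against 34.32; 1.05). miR-1247 and miR-1913 were ranked 2 and 3 of the 53. Higher with STAT3 were miR-1266 (-2.05), which was the lowest of the 53, miR-1207-5p (-1.30) and miR-1914 (-1.11). The median over the 13 was -0.31, beside 0.01 over the other 40 assays. miR-1972 (0.72), miR-1909 (-0.31), miR-1248 (-0.40), miR-1296 (-0.43) and miR-2110 (-0.55) lay within 2-fold.

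Members detected with 1 of the HepG2 target probes were more often those of STAT3 by count, as over the whole panel. With p21 and not STAT3 there were 5 (8.33%, beside 8.11% of the panel), led by miR-1224-3p, at least 7.59-fold higher, with miR-1260 (33.71 against 36.02, 2.31-fold) and miR-1908 (33.76 against 35.46, 2.24-fold). With STAT3 and not p21 there were 11 of 60, beside 64 of 370 on the panel, led by miR-1254 (3.66-fold), miR-3180-3p (no Cq with p21, 33.51 with STAT3; 2.96-fold) and miR-1244 (38.71 against 33.59; 2.82-fold). With any Cq counted, 35 members had a value with both probes, 14 with STAT3 only, 0 with p21 only and 11 with neither. Over the other 310 assays these counts were 138, 74, 9 and 89. Of the 35, 14 had the lower Cq with p21 and 21 with STAT3; for the others it was 54 and 84 of 138.

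Of 5 mirtrons on the panel 4 were detected in at least 1 purification, where 39.7% of all panel 2 assays were: miR-1224-3p and miR-1227 with p21, and miR-1236 and miR-1237 with STAT3. miR-1224-3p was detected with the control too. miR-1227 gave 38.01, 34.96 and 35.09 in HepG2, so its p21 and STAT3 values differed by less than the SD of a Cq although they fall on both sides of the limit. miR-1236 gave no Cq with the control, 36.47 with p21 and 33.77 with STAT3, and miR-1237 gave 37.44, 35.96 and 33.93. miR-1238 gave no Cq in any purification. In PC-3 0 of the 5 were detected, with miR-1224-3p at 35.11 and miR-1227 at 35.10 under the p21 probe just beyond the limit.

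The 3 members whose names were withdrawn or which resemble other small RNAs were each detected in HepG2 with a target probe and not with a control, as were 67 of the 370 panel assays with p21 and 104 with STAT3. miR-1201, since reclassified as a small nucleolar RNA, gave 37.78, 33.19 and 34.32 in HepG2, then 36.33 and 35.45 in PC-3. miR-1259, also withdrawn, gave no Cq, 35.61 and 34.41 in HepG2, then 35.44 and 37.82 in PC-3. miR-1260, for which RefSeq has miR-1260a in MIR1260A and a sequence that ends in CCA as transfer RNAs do, gave 37.28, 33.71 and 36.02 in HepG2, then 37.46 and 36.55 in PC-3. miR-1248, which lies in EIF4A2, the gene of a translation initiation factor, gave no Cq with either control probe or with p21 in PC-3, and 34.60 and 34.28 with p21 and STAT3 in HepG2.

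miR-1266, miR-1471 and miR-1183 had the smallest spans of Cq among the members with a value in all 5 purifications. For miR-1266 the HepG2 Cq was 33.95 (control), 34.35 (p21) and 32.39 (STAT3). Its PC-3 values were 33.08 (control) and 32.74 (p21), a span of 1.96 cycles over the 5 purifications. A span joins the extremes of 5 values, so the SD of a difference cannot be used to judge it. Whether this span exceeds the error of the wells was not tested. In PC-3, where 0 of 4 panel assays measured with both probes moved by 2-fold in either direction (0%), miR-1266 stood at 0.51. miR-1471 gave 36.29, 35.38, 34.82, 34.86 and 35.23 in the same order, a span of 1.47 cycles that crosses the limit. It was the other member detected with the PC-3 control probe. miR-1183, always beyond the limit, spanned 1.12 cycles (35.85 to 36.97). Of the 28 panel 2 assays with a Cq in all 5 purifications 11 are members, and these 3 ranked 2, 5 and 7 from the smallest span. miR-1247 ranked 27, with 9.12 cycles. The median span was 3.75 cycles for the 11 members and 4.09 for the other 17.

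**Figure D4:**
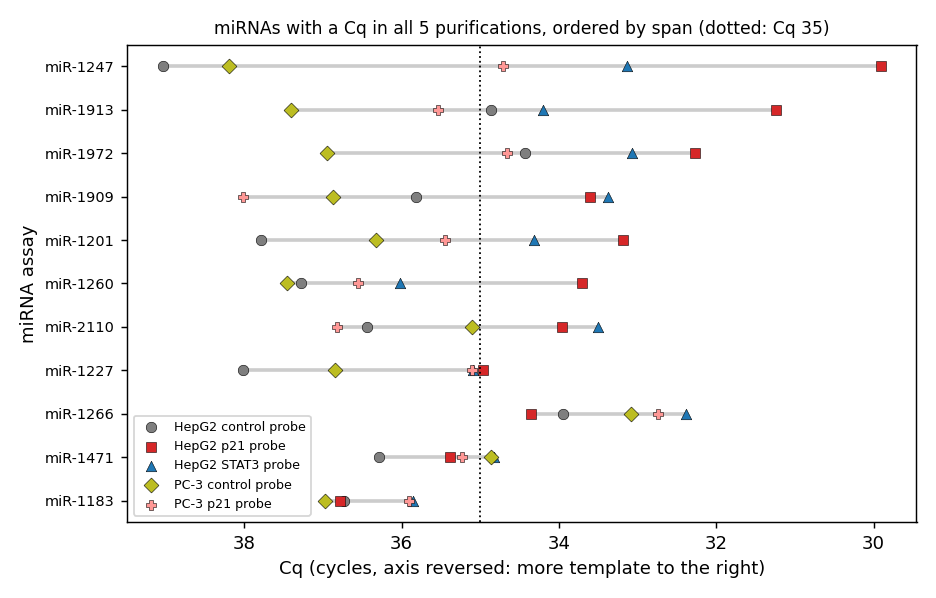
Cq (cycles, axis reversed) in each purification for the 11 miRNAs with a Cq in all 5, ordered by span; grey bars join the lowest and highest value and the dotted line is the limit of 35. miR-1183, miR-1471 and miR-1266 span 1.12 to 1.96 cycles, and miR-1247 spans 9.12.

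In PC-3, 4 members were detected with the p21 probe and not with the control (6.67%, beside 2.97% of the panel): miR-1247, miR-1538, miR-1914 and miR-1972. Their Cq lay between 34.48 and 34.71, and their bounds were 1.37-fold to 1.61-fold, below the 2-fold size and within 1 SD of a Cq from the limit. miR-1972 gave 34.43, 32.27 and 33.07 in HepG2, then 36.95 and 34.66 in PC-3. With any Cq counted, 24 members had a value with the p21 probe in PC-3 and 15 with the control, beside 78 and 61 of the 370 panel assays.

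The 31 members detected in none of the purifications include miR-1271, whose 5p arm shares its seed with miR-96 and whose 3p arm shares one with miR-550a, and miR-1270, which shares its seed with miR-620. These were the members with a seed in common with another panel assay, where a mature sequence could be matched. Their partners were undetected too: miR-96 gave 39.52 with p21 and 36.66 with STAT3 in HepG2, and miR-550a gave 35.48 and 37.02 there. The 10 members with no Cq at all were miR-1178, miR-1200, miR-1206, miR-1238, miR-1243, miR-1263, miR-1264, miR-1537, miR-1911 and miR-2053. Water was run in 9 wells of each purification, and 0 of these 45 readings crossed the threshold. The liver miRNA miR-122, a marker of hepatocytes, gave no Cq in any of the 5 purifications, HepG2 included; total RNA of the lines was not analysed here.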

How the data were processed

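Per the labels, cells received the probe by transfection, streptavidin Dynabeads captured it with its bound RNA, TRIzol extracted that RNA, and Exiqon SYBR Green panels measured the miRNAs. The instrument and the Cq threshold were not given in the sources used here. Unnormalised Cq values, 1 well per assay with undetermined wells marked, were deposited by the authors. They also deposited linear fold ratios per comparison which, per the file headers, are 2 to the power of minus ΔΔCt, although the columns are titled as log values; 58 of the 60 members are listed.

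Groups came from the labels, and panels were not treated as replicates. Detection meant a Cq of at most 35. Differences were centred per panel on the median of miRNA assays detected with both probes; 2-fold changes were counted. A bound set the undetected probe to Cq 35. Named were all members detected at least 1 time. The members and lists were chosen with earlier results of these data known. Alternatives were other Cq limits and centrings. The calculation was tested on simulated data in which every assay was detected well inside the limit, with less noise than the wells here. That test does not bear on values near the limit or on the bounds. A check of hairpin GC content was void, since a hairpin entry was matched for 42 of 60 members (70.0%). Entries of a whole chromosome were left out of that matching. Python 3.11.15, pandas 2.3.3 and numpy 2.4.6 were used.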

Additional observations from a re-analysis of the deposited data

Results flagged for a closer look

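After centring, miR-1266 moved in opposite directions with the p21 probe in the 2 lines. It was lower than with the control in HepG2 (-1.46 log2 units after centring) and higher in PC-3 (0.51). It was the only member measured with both probes in both lines, each value rests on 1 purification per probe, and the difference between the lines was not tested. The PC-3 value is smaller than the SD of a difference between repeated wells (0.72), and its median rests on 4 assays, miR-1266 among them. Without centring the values were -0.40 in HepG2 and 0.35 in PC-3, both smaller than that SD. With the small RNAs as reference both values were negative (-2.91 and -0.82).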

How the results depend on the processing

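Counts of detected members followed the limit. At Cq 32 they were 0, 4 and 0 for the HepG2 control, p21 and STAT3 probes and 0 and 0 for PC-3 control and p21. Over the panel 0.811%, 3.24%, 1.35%, 0.270% and 0.270% were detected at that limit. At Cq 37 the members were 10, 29, 42, 9 and 17, beside 13.5%, 34.9%, 56.5%, 8.11% and 10.8% of the panel. With no limit they were 22, 35, 49, 15 and 24, beside 26.2%, 49.2%, 70.5%, 16.5% and 21.1%. For the counts by comparison that follow, the panel's shares at these settings are not given. Members detected with the target probe only at Cq 32 were 4 for p21 and 0 for STAT3 in HepG2 and 0 for p21 in PC-3. At Cq 37 they were 32 for STAT3 in HepG2 and 10 for p21 in PC-3, and with p21 but not STAT3 1. For p21 against control in HepG2, centring on the small RNAs left 1 member higher, with miR-1972 at -0.36 and miR-1224-3p at -0.30; no centring and UniSp6 left 0 lower, and Cq 37 gave 6 higher and 3 lower. For STAT3 against control, no centring gave 2 higher, the small RNAs 1 lower, and Cq 37 gave 3 higher and 1 lower. For p21 in PC-3, Cq 37 gave 4 higher and 1 lower. For p21 against STAT3, UniSp6 left 1 lower, and Cq 37 gave 9 higher and 10 lower. The cause of these changes was not tested beyond the settings' own construction. Centring on the assays outside the group, added after the data were examined, moved none of the 21 member differences by more than the SD of repeated wells. UniSp6 likewise moved none, while no centring moved 7 and the small RNAs 8. A centring moves all members of a comparison by the same amount, so these counts follow from a single shift per comparison and are not separate checks. For p21 against control in HepG2 the shift was 0.36 cycles with UniSp6 and 1.06 with the median, a change just inside that SD. Cq values near 35 rest on few template molecules, so values there are less precise than the SDs given.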

Other observations

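The authors' deposited folds of the 58 listed members were set against folds computed anew from each Cq, taking UniSp6, a spike-in control on panel 2, as the reference and 35 in place of higher or undetermined values, a scheme inferred from the values. Within 0.01 log2 units were 58 of 58 for p21 in HepG2, 54 for STAT3 and 56 for p21 in PC-3. In the authors' deposited table, a total of 41, 30 and 53 members stand at a single value in those comparisons, 0.782, 0.565 and 1.51, which is what the scheme gives for an assay undetected with both probes. The 4 that departed by more than 0.01 log2 units for STAT3 were miR-1181, miR-1227, miR-1260 and miR-1908. They are the 4 members detected with the HepG2 p21 probe only. Their deposited folds of 0.340, 0.531, 0.279 and 0.410 are matched when the STAT3 Cq, which lay above 35 in each, is not set to the limit (0.340, 0.531, 0.279 and 0.410). miR-1253, detected in no purification, stands at 0.561 for STAT3, from a Cq of 35.01, and counted as within 0.01 log2 units. In PC-3 the authors' deposited table gives miR-1914 1.51 and miR-1972 0.710. The scheme gives 1.91 for both, from p21 Cq values of 34.66.

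Star strands of 2 members were on the panel. miR-1914* gave 38.19 with p21 and 36.62 with STAT3 in HepG2 and no Cq elsewhere, beside 34.50 and 33.48 for miR-1914. miR-1911* gave 39.34 and 38.75 in the same purifications, and miR-1911 no Cq. These are different assays, so their levels cannot be set against each other.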
